A study of Homo sapiens with 24 samples.

Results

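Open chromatin at FKBP5 was described from the FAIRE-seq peak lists of 24 libraries. The FKBP5 peaks were all listed peaks that overlapped chr6:35530000-35720000 (hg19), a window chosen by position and not by signal, in which FKBP5 lies on the minus strand from about 35541000 to 35696000. The window held 570 of the 4683186 peaks in the 24 lists. Peaks that overlapped by at least 1 bp in any libraries were merged, which gave 84 regions in the window, of 744442 in the genome. Of these, 75 lay inside the gene, 8 beyond its 5′ end and 1 beyond its 3′ end. Each region is named here by the distance of its midpoint from the 5′ end of the gene in kb, with positive distances running into the gene and negative distances lying upstream.

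FAIRE isolates DNA that is free of nucleosomes, and sequencing of that DNA marks open chromatin such as promoters and enhancers. LNCaP is an androgen-sensitive line from a human prostate cancer metastasis. RES-A is a subline of it that was selected by passage in enzalutamide (ENZ), a drug that blocks androgen signalling. Before treatment the cells spent 3 days in 5% charcoal-stripped serum, which removes steroids, and RES-A alone was kept in 10 µM ENZ during that time. Treatment lasted 18 h and consisted of the solvent DMSO, of the androgen dihydrotestosterone (DHT) at 10 nM, of ENZ at 10 µM, or of DHT and ENZ together (DHT+ENZ). The RES-A DMSO cells had thus come out of ENZ, while the LNCaP DMSO cells had not been in it. There were 3 libraries in each of the 8 groups, described as biological triplicates, and whether RES-A is a single clone is not given in the sources used here.

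FKBP5 encodes an FK506-binding co-chaperone of Hsp90 that takes part in the maturation of steroid hormone receptors. It is transcribed in response to androgens, glucocorticoids and progestins and is widely used as a marker of the response to these hormones. Steroid hormones act on FKBP5 mostly through enhancers within its introns and around the gene, at some distance from the promoters.

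RefSeq gives FKBP5 2 transcription starts, and a strong FAIRE region was found near the position of each, so the bases before both starts are shown. They are the 250 bases upstream of the outer start, chr6:35728584-35728833, and of the inner start, chr6:35688916-35689165, on the minus strand of GRCh38.p14, read 5′ to 3′ with CG dinucleotides in capitals.
Outer FKBP5 promoter: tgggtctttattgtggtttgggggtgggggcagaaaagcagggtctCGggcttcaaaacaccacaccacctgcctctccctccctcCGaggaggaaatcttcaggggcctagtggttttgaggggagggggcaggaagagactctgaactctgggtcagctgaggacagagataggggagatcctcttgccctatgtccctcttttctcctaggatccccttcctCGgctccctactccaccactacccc
Inner FKBP5 promoter: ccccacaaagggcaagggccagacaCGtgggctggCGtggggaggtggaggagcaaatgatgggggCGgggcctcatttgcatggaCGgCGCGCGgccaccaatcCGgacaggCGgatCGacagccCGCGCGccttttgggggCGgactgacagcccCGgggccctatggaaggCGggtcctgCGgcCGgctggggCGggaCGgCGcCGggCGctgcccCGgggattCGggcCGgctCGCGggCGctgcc
The outer sequence held 57.6% G and C with 3 CG dinucleotides, and the inner sequence held 74.8% with 29. The medians over the 250 upstream bases of all 35116 RefSeq promoters were 58% and 11, and 14.1% of promoters held at least 29 CG dinucleotides. The outer sequence is therefore poor in CG and the inner one is rich. The steroid response half-site AGAACA, searched on both strands as AGAACA and TGTTCT, was in neither sequence and was in 12.4% of all promoters, and the full palindrome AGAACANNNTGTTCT, which overlaps the half-site, was in neither and in 0.00285% of all. The starts are 39668 bp apart in GRCh38.p14. In the FAIRE lists, which are on hg19, the summits of the 0.1 kb region and of the 39.2 kb region were 39108.5 bp apart at their medians over the libraries. No coordinate was converted between builds, and the hg19 sequence of the intronic regions was not used here.

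The lists held 73254 to 275774 peaks per library, and the genome-wide background that their values imply ranged from 0.406 to 5.99 overlapping fragments per base. The shallowest libraries were LNCaP ENZ replicate 1, at 0.406, and LNCaP DHT replicate 1, at 0.739. They held 6 and 15 peaks in the FKBP5 window, against 14 to 37 in the other 22 libraries. A missing peak in either is weak evidence of closed chromatin.

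Of the 84 regions, 36 were listed in 1 library and 19 in 2 to 5. These 55 regions held 85 peaks with fold enrichments of 2.27 to 4.54 over the local background, and they were not tested further. The other 29 regions, each with a peak in at least 6 libraries, held 485 of the 570 peaks. Of the 29, 23 lay inside the gene and 6 upstream of it. A peak was listed in all 24 libraries at 5 of them, at 126.7, 97.3, 39.2, 0.1 and -9.5 kb. These 5 regions were thus open in both sublines under every treatment, including after androgen starvation.

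**Figure D1:**
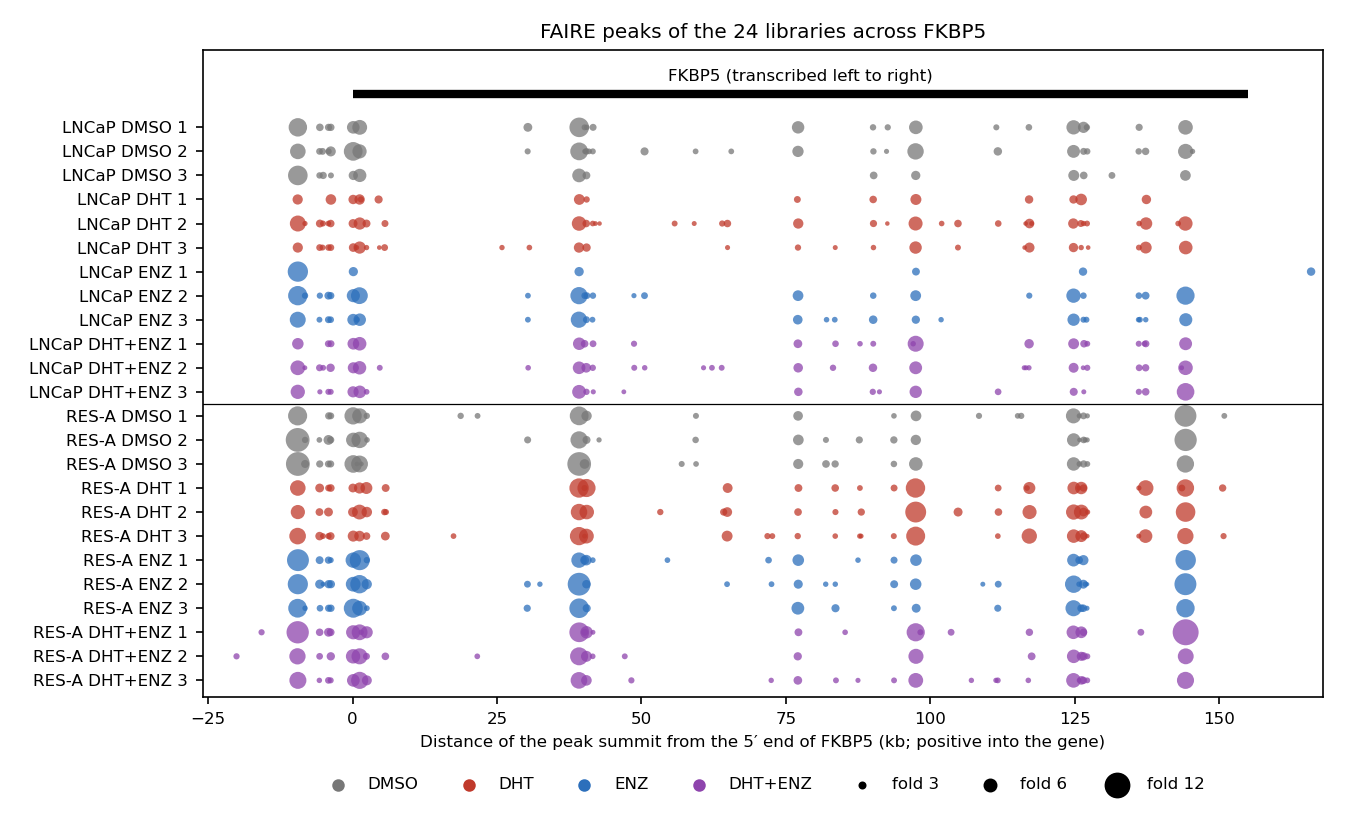
Each point is a FAIRE peak of one library (rows), placed by the distance of its summit from the 5′ end of FKBP5 in kb (horizontal axis) and sized by its fold enrichment, with colours for the 4 treatments and a black bar for the gene. Columns of large points at -9.5, 0.1, 39.2, 97.3 and 144.2 kb run through nearly all rows. The columns at 64.9, 117.3 and 137.3 kb are mostly or entirely filled in the DHT rows and have points in some, but not all, of the other rows.

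At least 2 of the 3 libraries had a peak at 19 regions in LNCaP DMSO, 23 in LNCaP DHT, 18 in LNCaP ENZ and 19 in LNCaP DHT+ENZ. In RES-A the numbers were 19 with DMSO, 23 with DHT, 19 with ENZ and 16 with DHT+ENZ. The DHT groups had the most regions in both sublines. In cell populations, a region open in more cells and a region more open in each cell cannot be told apart.

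The strongest peaks were counted as those among the 50000 peaks of each library with the highest −log10 p, which limits the effect of depth. In RES-A with DHT, 11 of these lay in the FKBP5 window in each of the 3 libraries. In LNCaP with DHT there were 7, 8 and 9, and in RES-A with DHT+ENZ there were 7, 8 and 10. The other groups had 3 to 7. The 3 RES-A DHT libraries thus stood above all the others.

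For the tests, the highest fold enrichment of each library at a region was taken as log2 and scaled so that every library had the same mean and spread over the 29296 regions of the genome listed in all 24 libraries. A library without a peak at a region was given its own floor, the 1st percentile of its folds. The 8 groups were fitted with limma at 224432 regions and p-values were adjusted over all of them by the Benjamini-Hochberg method, with an adjusted p under 0.05 taken as a call. Differences below are in scaled log2 fold, and fold enrichments of single libraries are as deposited. Because the floors differ, a region without any peak in 2 compared groups still has a difference, which was 0.26 for DHT minus DMSO in LNCaP and 0.07 in RES-A, so small positive differences in LNCaP carry no information. The median over all regions was 0.14 in LNCaP and -0.0078 in RES-A.

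Intronic regions of FKBP5 rose with DHT in both sublines. In LNCaP, 2 of the 29 regions rose with DHT and none fell, where 1.65% of all regions rose. In RES-A, 5 of the 29 rose, where 3.27% of all regions rose, and 1 fell, where 1.20% of all regions fell. The median difference of the 29 regions was 0.26 in LNCaP and 0.07 in RES-A, both equal to the value that the floors alone give. The regions called in LNCaP, at 137.3 and 117.3 kb, were also called in RES-A, which added those at 97.3, 64.9 and 40.6 kb. The 64.9 kb region entered the test through its DHT peaks, as described below, which leaves 4 others for RES-A.

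The 137.3 kb region (chr6:35558361-35559003) lay deep in the gene, nearer to its 3′ end than to its 5′ end, and had the clearest response. In LNCaP with DHT its fold enrichment was 4.76, 6.29 and 6.02. It was 3.77 in LNCaP DMSO replicate 2, with no peak in the other 2 DMSO libraries. In RES-A with DHT it was 7.88, 6.48 and 6.91, and no peak was listed in any of the other 9 RES-A libraries. The DHT libraries of each subline were thus above all the others of that subline. The difference between DHT and DMSO was 1.33 ± 0.19 (SE, n = 3 per group) in LNCaP, with a limma adjusted p of 0.000438, and 1.39 ± 0.19 in RES-A, with an adjusted p of 2e-05. Both calls held under all 32 alternatives in which the region was tested.

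At the 117.3 kb region (chr6:35578395-35579051) the folds with DHT were 4.26, 4.88 and 5.10 in LNCaP and 6.11, 7.12 and 7.74 in RES-A. With DMSO the only peak, of 3.35, was in LNCaP replicate 1. With ENZ the only peak, of 3.13, was in LNCaP replicate 2. This region therefore had peaks in all 6 DHT libraries and in 2 of the 12 given DMSO or ENZ. DHT exceeded DMSO by 1.17 ± 0.24 in LNCaP (limma adjusted p = 0.00644) and by 1.37 ± 0.24 in RES-A (adjusted p = 0.000343). The LNCaP call was lost without LNCaP DMSO replicate 2, where the adjusted p was 0.0570.

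The 97.3 kb region (chr6:35598324-35598991) was open in every library and opened further with DHT in RES-A. Its fold was 5.41, 5.21 and 6.87 in RES-A DMSO and 9.81, 10.6 and 9.60 in RES-A DHT, without overlap. The difference was 0.72 ± 0.16 with an adjusted p of 0.00572 in limma. In LNCaP the folds were 6.90, 8.30 and 4.68 with DMSO and 5.57, 7.10 and 6.28 with DHT, which overlap, and the scaled difference was 0.36 ± 0.16 (adjusted p = 0.288). In the order of the scaled group means, RES-A DHT was first and did not overlap with LNCaP DHT behind it, while every later neighbour overlapped.

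The 64.9 kb region (chr6:35630938-35631288) had peaks in only 6 libraries. They were RES-A DHT, at 4.99, 4.91 and 5.51, LNCaP DHT replicates 2 and 3, at 3.81 and 2.58, and RES-A ENZ replicate 2, at 2.92. All DHT libraries but the shallow LNCaP DHT replicate 1 were thus among them. With its 6 peaks this region only just met the filter, and it did so through DHT libraries, so that it had to be higher with DHT. Its differences, 0.96 ± 0.21 in RES-A and 0.64 ± 0.21 in LNCaP, are given as a description.

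The 40.6 kb region (chr6:35654752-35655956) lay next to the 39.2 kb region, which is near the inner start. With DHT its fold was 9.17, 7.36 and 7.50 in RES-A, against 5.25, 4.05 and 4.91 with DMSO. Grouped by summits at most 200 bp apart, it held a summit at 40.5 kb and another at 40.2 kb. The 4.91 of RES-A DMSO replicate 3 lay at 40.2 kb, and that library had no peak at 40.5 kb. At 40.2 kb, RES-A DHT replicates 1 and 3 had folds of 3.09 and 2.5, and replicate 2 had no peak. Over the merged region the difference was 0.69 ± 0.20 (limma adjusted p = 0.0447). That call was lost when any single RES-A library other than ENZ replicate 1 was left out, with adjusted p-values of up to 0.204. It was also lost with regions listed in at least 2 libraries.

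**Figure D2:**
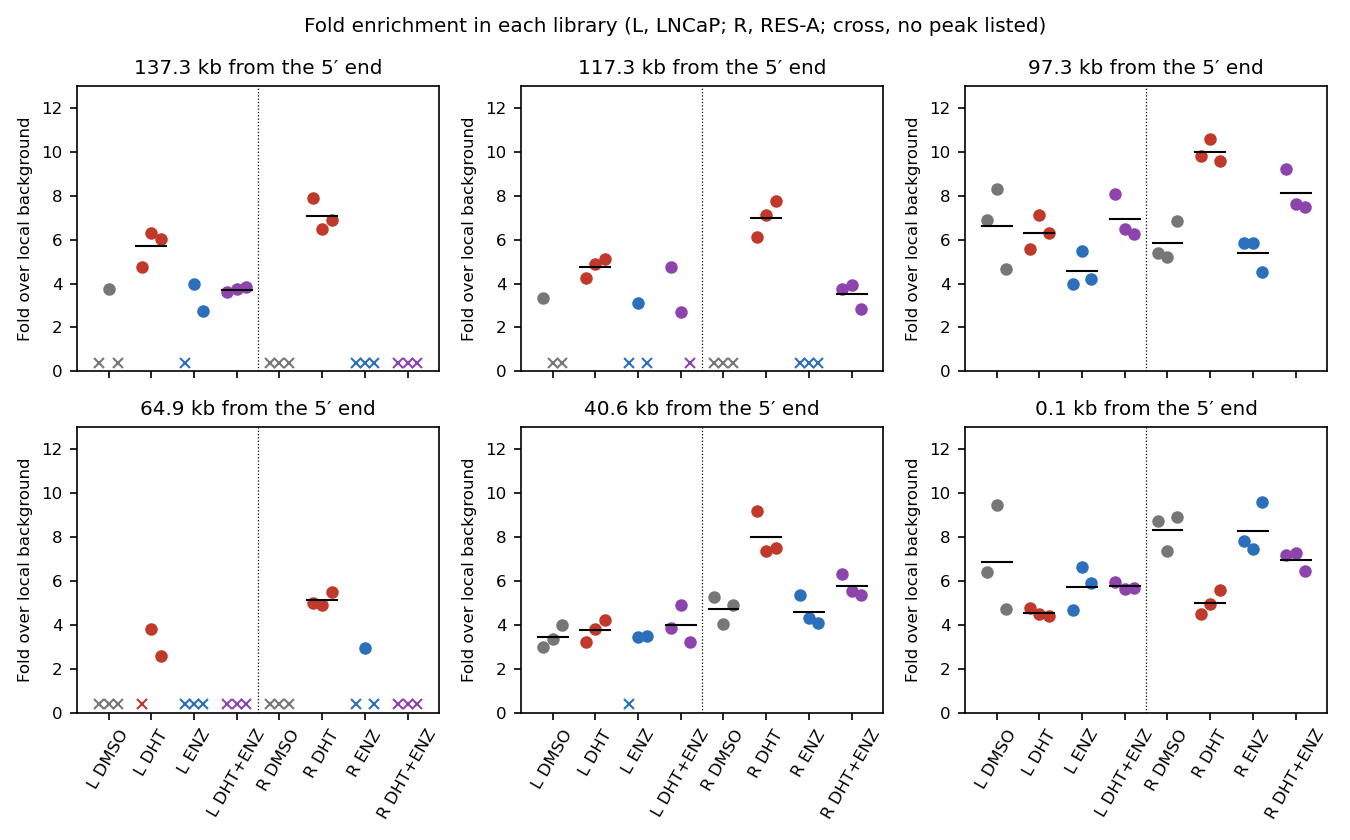
Fold enrichment over the local background (vertical axis) in each of the 24 libraries at the 6 FKBP5 regions called for DHT in RES-A, in 8 groups of 3 libraries (L, LNCaP; R, RES-A), with a cross where no peak was listed and a black line at the mean of a group with 3 peaks. The DHT libraries stand above the other libraries of the same subline at 137.3 kb in both sublines and at the 4 other regions that rose in RES-A, whereas at 0.1 kb the RES-A DHT libraries are the lowest of that subline.

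The 126.7 kb region was a merger of neighbouring summits, and it is described because of that, chosen after its values were seen. As a whole it was listed in all 24 libraries, with folds of 2.54 to 7.51. When peaks were grouped instead by summits at most 200 bp apart, a summit at 126.1 kb separated from the rest. It had peaks in all 3 LNCaP DHT libraries, at 5.88, 3.53 and 2.73, in all 3 RES-A DHT libraries, at 6.30, 7.51 and 6.04, in all 3 RES-A DHT+ENZ libraries, at 5.94, 4.61 and 4.35, and in RES-A ENZ replicate 3, at 3.89. No DMSO library and no LNCaP DHT+ENZ library had one. The 126.1 kb summit met the filter of at least 6 libraries only through its DHT peaks, so its differences are given as a description. In that fit over 235504 clusters, DHT exceeded DMSO there by 0.995 ± 0.27 in LNCaP and by 1.30 ± 0.27 in RES-A. Of the 30 FKBP5 clusters, 3 rose with DHT in LNCaP and 6 in RES-A, where 1.50% and 3.11% of all clusters rose. Both counts include the 126.1 kb summit, and that of RES-A also includes the 64.9 kb region. The neighbouring summit at 126.5 kb differed by -0.34 ± 0.22 and 0.14 ± 0.22 (limma adjusted p = 0.525 and 0.950). A summit without a peak in any DMSO library thus adjoined one listed in 23 of the 24 libraries.

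By fold, no rise with DHT was called at the 39.2, 0.1 and 1.3 kb regions, which lie nearest to the 2 starts, although the neighbouring 40.6 kb region rose in RES-A as given above. At the 39.2 kb region (chr6:35656578-35656998), near the inner start, folds ran from 6.95 to 9.90 with DMSO and from 5.22 to 7.35 with DHT in LNCaP. In RES-A they ran from 8.74 to 11.98 with DMSO and from 8.33 to 9.77 with DHT. The scaled differences were -0.16 ± 0.17 and -0.11 ± 0.17 (limma adjusted p = 0.620 and 0.945). All neighbours in the order of the 8 group means overlapped.

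At the 0.1 kb region (chr6:35695744-35696104), at the 5′ end of the gene, the fold fell with DHT in RES-A. It was 8.74, 7.37 and 8.91 with DMSO and 4.47, 4.95 and 5.59 with DHT, without overlap. The difference was -0.68 ± 0.18 with a limma adjusted p of 0.0191. The call was lost without RES-A DMSO replicate 1 or 3, at -0.63 and -0.66, and without RES-A DHT replicate 1 or 2, at -0.60 and -0.67 (adjusted p = 0.0905, 0.0782, 0.116 and 0.0672). In LNCaP the folds were 6.39, 9.46 and 4.70 with DMSO and 4.77, 4.50 and 4.39 with DHT, a difference of -0.19 ± 0.18 (adjusted p = 0.610). At the 1.3 kb region (chr6:35694416-35695014), within 2 kb of the 5′ end, the differences were 0.09 ± 0.19 in LNCaP and -0.38 ± 0.19 in RES-A (adjusted p = 0.821 and 0.376).

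The fold at the 5′ end fell while the reads at its summit did not. The fold divides the summit by the local background, which was recovered from each fold and pileup and divided by the background of the whole library. In RES-A the local background at the 0.1 kb region was 2.31 to 2.42 times that of the library with DMSO and 4.72 to 5.56 times with DHT. The pileup at the summit was 18.9 to 23.9 times the background of the library with DMSO and 26.6 to 27.9 times with DHT, so that the summit was higher with DHT in all 3 libraries. With pileup as the measure, the difference at the 0.1 kb region was 0.18 and was not called (adjusted p = 0.833). In LNCaP the local background there was 1.66 to 1.80 with DMSO and 1.89 to 2.34 with DHT.

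A little farther into the gene, pileup rose more with DHT than fold did. At the 2.4 kb region (chr6:35693426-35693758), RES-A DHT libraries had pileups of 35.7, 29.8 and 19.96 times the library background, against 7.71 and 6.28 in the 2 RES-A DMSO libraries with a peak. Their folds over the local background were 6.04, 5.33 and 3.86, against 3.22 and 2.85. By fold the difference was 0.74 ± 0.25 in RES-A and 0.70 ± 0.25 in LNCaP, and neither was called (limma adjusted p = 0.0972 and 0.152). By pileup both were, with differences of 1.98 ± 0.34 (adjusted p = 0.000305) and 1.34 ± 0.34 (adjusted p = 0.0233). The 5.6 kb region (chr6:35690151-35690637), named here after its values were seen, had peaks in LNCaP DHT replicates 2 and 3, at 3.53 and 3.46, in all 3 RES-A DHT libraries, at 3.99, 3.30 and 4.43, and in RES-A DHT+ENZ replicate 2, at 3.86. It too met the filter with 6 peaks, none of them without DHT, so no test is given for it. With pileup, 4 of the 29 regions rose in LNCaP and 9 in RES-A, where 2.76% and 3.72% of all regions rose, and these counts include the 5.6 kb region in both sublines and the 64.9 kb region in RES-A.

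Over the 5 FKBP5 regions listed in all 24 libraries, the median local background was 1.92 to 1.99 in RES-A DMSO and 2.16 to 2.58 in RES-A DHT, a ratio of 1.20 (two-sided exact permutation test, p = 0.1, the smallest that 3 against 3 allows). The same median over the 155 such regions in the 5 Mb on either side of the window was 1.851 to 2.005 and 1.88 to 2.01, a ratio of 1.02 (exact permutation p = 0.6). In LNCaP the ratio was 0.857 in the window and 0.826 in the flanks (exact permutation p = 0.2 and 0.1). In RES-A the DHT and DMSO libraries thus did not overlap at FKBP5 and did overlap in the flanks. This comparison was made after the values were seen, and the difference between window and flanks was not tested.

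**Figure D3:**
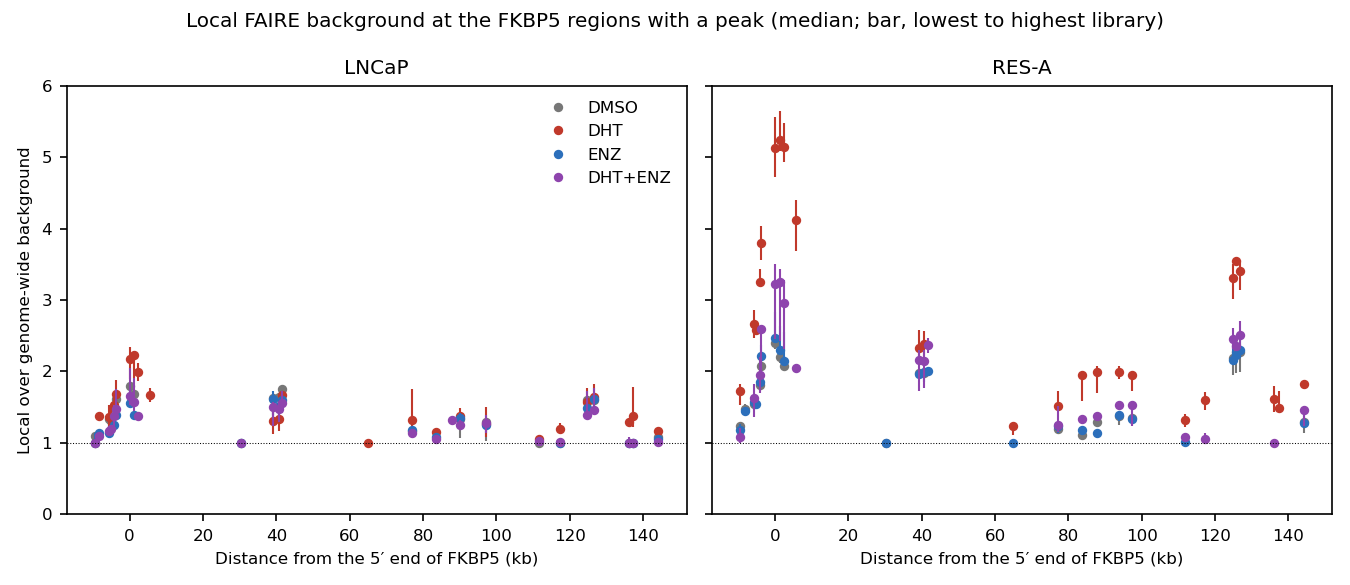
Local background at each tested FKBP5 region, divided by the genome-wide background of the library (vertical axis), against the distance of the region from the 5′ end in kb, for the libraries with a peak there; points are medians and bars run from the lowest to the highest library. In RES-A the DHT point stands at 5.13 at 0.1 kb against 2.40 with DMSO, and at 3.41 against 2.27 at 126.7 kb, while in LNCaP no point passes 2.23.

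The response to DHT was not shown to differ between the sublines. Of the 29 regions, none passed the test of the difference between the DHT effects in RES-A and LNCaP, where 0.0138% of all regions did in limma. One region had an unadjusted p under 0.05. The differences ranged from -0.66 to 0.62, and the lowest adjusted p was 0.565. At 137.3 kb the 2 effects differed by 0.06 ± 0.27, and at 117.3 kb by 0.20 ± 0.34.

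No FKBP5 region was called for ENZ without DHT. In limma, 0 of the 29 regions were called in either subline, where 0% of all regions were called, and 1 region in LNCaP and 0 in RES-A had an unadjusted p under 0.05. The differences ranged from -0.34 to 0.36 in LNCaP and from -0.36 to 0.33 in RES-A.

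DHT+ENZ was compared with DHT to see whether ENZ lowered the response, and calls were made at 137.3 kb in LNCaP and at 137.3 and 64.9 kb in RES-A. The DHT libraries enter this comparison and the one with DMSO, so the 2 are not independent. In LNCaP, 1 of the 29 regions fell and none rose, where 0.449% of all regions fell. In RES-A, 2 fell and none rose, where 0.336% of all regions fell. The 64.9 kb region is 1 of these 2 and met the filter through its DHT peaks, which leaves only the 137.3 kb region. The median differences of the 29 regions were -0.24 and -0.06, beside -0.16 and -0.03 over all regions, and the floors alone give -0.32 and -0.06.

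At the 137.3 kb region, the LNCaP DHT+ENZ libraries still had peaks, of 3.62, 3.73 and 3.82, all below the 3 DHT libraries. The difference was -0.85 ± 0.19 (limma adjusted p = 0.0321). That call was lost when any single LNCaP DHT or DHT+ENZ library was left out, under median centring and at a q threshold of 0.01, with adjusted p-values of up to 0.136. In RES-A no DHT+ENZ library had a peak, against folds of 6.48 to 7.88 with DHT. The difference was -1.38 ± 0.19 (adjusted p = 0.00176), which held under all 32 alternatives in which it was tested.

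At the 64.9 kb region no DHT+ENZ library of either subline had a peak. The differences from DHT, -0.95 ± 0.21 in RES-A and -0.70 ± 0.21 in LNCaP, are a description for the reason given above, and the call in RES-A was lost without any one of the RES-A DHT+ENZ libraries, by pileup and at a q threshold of 0.01. At the 117.3 kb region, DHT+ENZ libraries had folds of 4.77 and 2.68 in LNCaP and 3.75, 3.95 and 2.82 in RES-A. Grouped by summits, the 3.95 of RES-A replicate 2 lay outside the 117.1 kb summit that held the DHT values. That library had no peak at the 117.1 kb summit. Over the whole region, the RES-A values lay between those with DMSO, where no peak was listed, and those with DHT. The differences from DHT were -0.88 ± 0.24 and -0.91 ± 0.24 and missed the threshold (adjusted p = 0.0775 and 0.0818), while by pileup both passed it, at -1.26 ± 0.30 and -1.35 ± 0.30 (adjusted p = 0.0291 and 0.0282).

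At the 97.3 kb region no fall was called when ENZ was added. With DHT+ENZ its folds were 8.10, 6.50 and 6.26 in LNCaP and 9.20, 7.63 and 7.48 in RES-A, against 9.81, 10.6 and 9.60 with DHT in RES-A. The differences from DHT were -0.04 ± 0.16 and -0.24 ± 0.16 (limma adjusted p = 0.907 and 0.882). Against ENZ alone, DHT+ENZ was higher there by 0.66 ± 0.16 in LNCaP and 0.61 ± 0.16 in RES-A, which also missed the threshold (adjusted p = 0.149 and 0.260). No FKBP5 region was called between DHT+ENZ and ENZ in either subline, where 0.0169% and 0.0704% of all regions were called in limma, and 2 regions in each subline had an unadjusted p under 0.05.

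**Figure D4:**
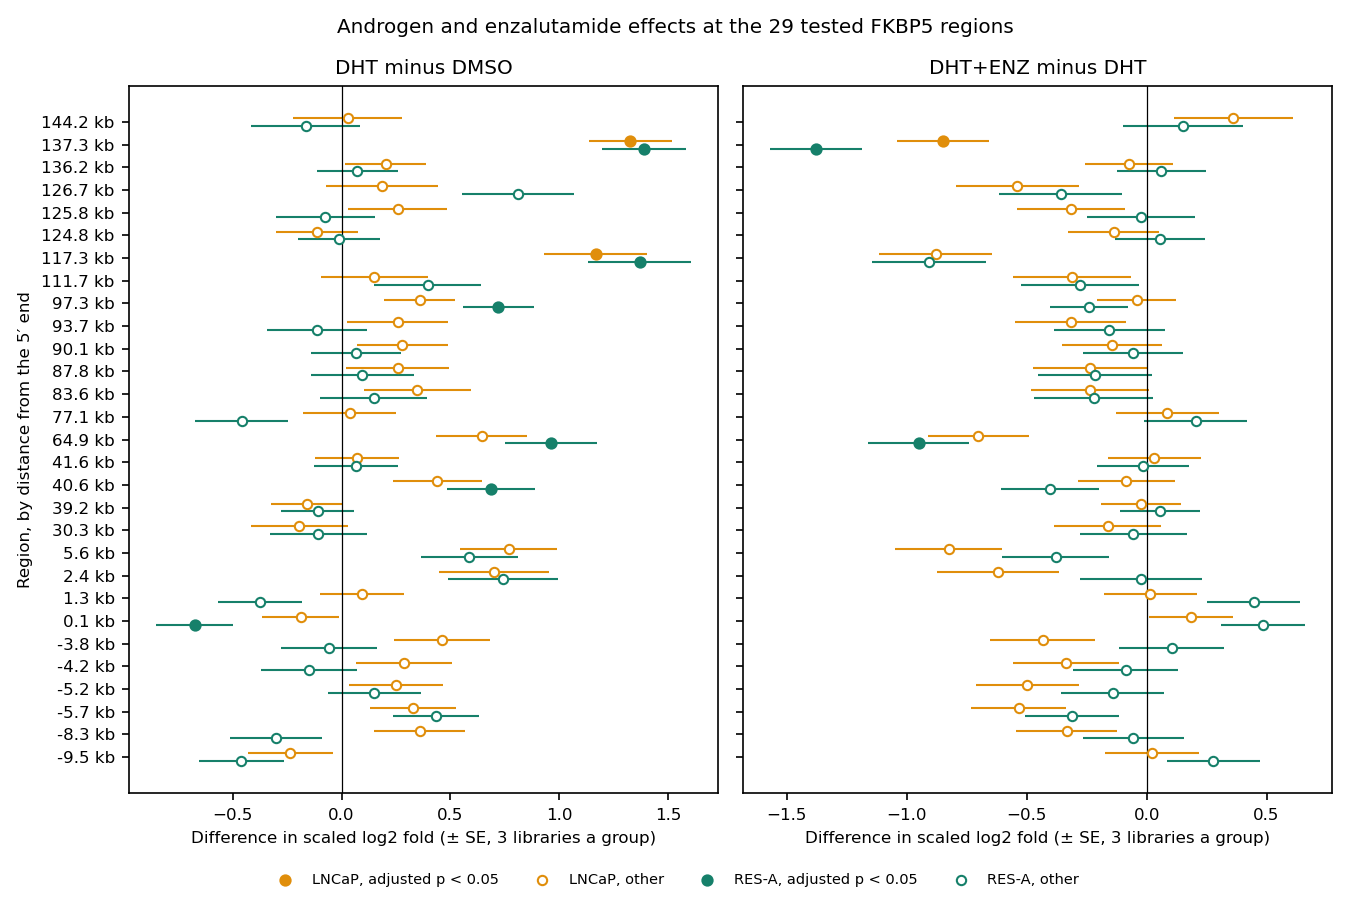
Difference in scaled log2 fold (horizontal axis, ± SE, 3 libraries a group) at each of the 29 tested FKBP5 regions, ordered by distance from the 5′ end, for DHT minus DMSO (left) and DHT+ENZ minus DHT (right) in LNCaP and RES-A, with filled points where the adjusted p was under 0.05. The 137.3 kb region rises by 1.33 and 1.39 with DHT and falls by 0.85 and 1.38 when ENZ is added, and the 0.1 kb region stands at -0.68 in RES-A.

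The sublines were compared over the 4 treatments against the surrounding part of 6p, because chromosome 6 gave more signal in RES-A. Of the 50000 strongest peaks of a library, the 5 Mb on either side of the window held 0.461% ± 0.0295 in LNCaP and 0.699% ± 0.0244 in RES-A (SD, n = 12 per subline). All 12 RES-A libraries, at 0.648% to 0.724%, lay above all 12 LNCaP libraries, at 0.408% to 0.516%. The difference was 0.238 percentage points (two-sided permutation test of the subline labels within treatments, p = 2e-05, adjusted p = 6e-05 over 3 comparisons).

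The FKBP5 window held 6.08 ± 1.62 of the strongest peaks in LNCaP and 7.83 ± 2.25 in RES-A (SD, n = 12 each), a difference of 1.75 (permutation p = 0.00208, adjusted p = 0.00312). With all listed peaks the numbers were 22.8 ± 8.31 and 24.8 ± 3.41 (permutation p = 0.457, adjusted p = 0.457). The sign of that difference turned without the 2 shallow libraries, where it was -0.45.

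The local background at the 5 shared FKBP5 regions was also higher in RES-A. Under DMSO its median was 1.33 to 1.65 times the library background in LNCaP and 1.92 to 1.99 in RES-A. At the 155 shared regions of the flanks it was 1.31 to 1.36 and 1.851 to 2.005, while over the 29296 shared regions of the genome it was 1.54 to 1.66 and 1.63 to 1.72. Its part in the subline differences below was not tested.

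By fold over the local background, 4 of the 29 FKBP5 regions were higher in RES-A and 4 lower, where 28.2% and 22.3% of all regions were. In the flanks 452 of 1030 tested regions were higher and 85 lower. The median difference was 0.04 at FKBP5, 0.20 in the flanks and 0.03 over all regions. The count of FKBP5 regions that differed was no larger than the share of all regions would give, and its split depended on the measure. With pileup over the genome-wide background 13 were higher and 2 lower, where 31.9% and 21.8% of all regions were. With median centring 2 were higher and 10 lower, where 18.5% and 41.0% of all regions were. With one common floor 3 were higher and none lower, where 20.8% and 10.2% of all regions were. When each library was centred on the flanking regions of 6p, 21 FKBP5 regions were lower in RES-A and none higher, where 60.5% of all regions were lower.

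The regions higher in RES-A were those at 2.4, 40.6, 144.2 and 93.7 kb. The 2.4 kb region had peaks in 11 of 12 RES-A libraries and 3 of 12 LNCaP libraries. It met the filter of at least 6 libraries only through RES-A, so its difference of 0.46 ± 0.13 is given as a description. The 40.6 kb region differed by 0.46 ± 0.10 (limma adjusted p = 0.000344), with folds of 4.05 to 9.17 in RES-A and 3.004 to 4.90 in LNCaP. These are the highest folds over the summits that this region merges, so they are not all from the same summit. The 2.4 and 40.6 kb regions stood at the 73.8th and 73.0th percentiles of the differences of the flanking regions. Centred on the flanks, both differences were 0.08 and neither was called (adjusted p = 0.561 and 0.531). The 144.2 kb region (chr6:35551547-35552039) had folds of 8.03 to 13.1 in RES-A and 5.42 to 9.21 in the 10 LNCaP libraries with a peak, a difference of 0.32 ± 0.12 (adjusted p = 0.0311). That call was lost in 11 of 34 alternatives and reversed in 1. The difference was 0.14 (adjusted p = 0.154) without the 2 shallow LNCaP libraries, which had no peak there, 0.32 (adjusted p = 0.120) under one common floor and -0.06 when centred on the flanks. The 93.7 kb region (chr6:35602143-35602413) had peaks in 9 RES-A libraries, of 2.84 to 4.01, and in none of LNCaP. It too met the filter only through RES-A, so its difference of 0.28 ± 0.12 is given as a description. Its call was lost in 16 of 33 alternatives and reversed in 2.

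The regions lower in RES-A lay between 41.6 and 137.3 kb. All of them met the filter of at least 6 libraries only through LNCaP, so their differences are given as a description. The 90.1 kb region (chr6:35605652-35606162) was the sharpest contrast. It had peaks in 11 of 12 LNCaP libraries, with folds of 2.78 to 4.32, under all 4 treatments, and in no RES-A library. The LNCaP library without a peak was the shallow ENZ replicate 1. The difference was -0.55 ± 0.10, at the 1.94th percentile of the flanking regions. Under one floor common to all libraries it was -0.06 and not called (limma adjusted p = 0.169).

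The 136.2 kb region (chr6:35559521-35560087) had peaks in 9 LNCaP libraries, of 2.84 to 3.63, and in 3 of RES-A, of 2.53 to 3.46. Its difference of -0.37 ± 0.09 was 0 under one common floor and was not called by pileup (-0.21, limma adjusted p = 0.177). The 41.6 kb region (chr6:35654299-35654551) had peaks in 8 LNCaP libraries and 3 of RES-A. Its difference of -0.30 ± 0.10 was also 0 under one common floor. The DHT-responsive 137.3 kb region was lower in RES-A too, with a difference of -0.37 ± 0.10. That difference was not called by pileup or under one common floor, with limma adjusted p-values of up to 0.462. Outside the groups given DHT alone, the region was listed in 6 of the 9 LNCaP libraries and in 0 of the 9 RES-A libraries. The 3 LNCaP DHT+ENZ libraries, which did receive DHT, had folds of 3.62, 3.73 and 3.82. Among LNCaP libraries given no DHT, the folds were 3.77 in DMSO replicate 2 and 3.96 and 2.74 in ENZ replicates 2 and 3. In the DHT groups the scaled means of the sublines, 2.81 ± 0.19 in LNCaP and 2.69 ± 0.12 in RES-A (SD, n = 3), overlapped in range.

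**Figure D5:**
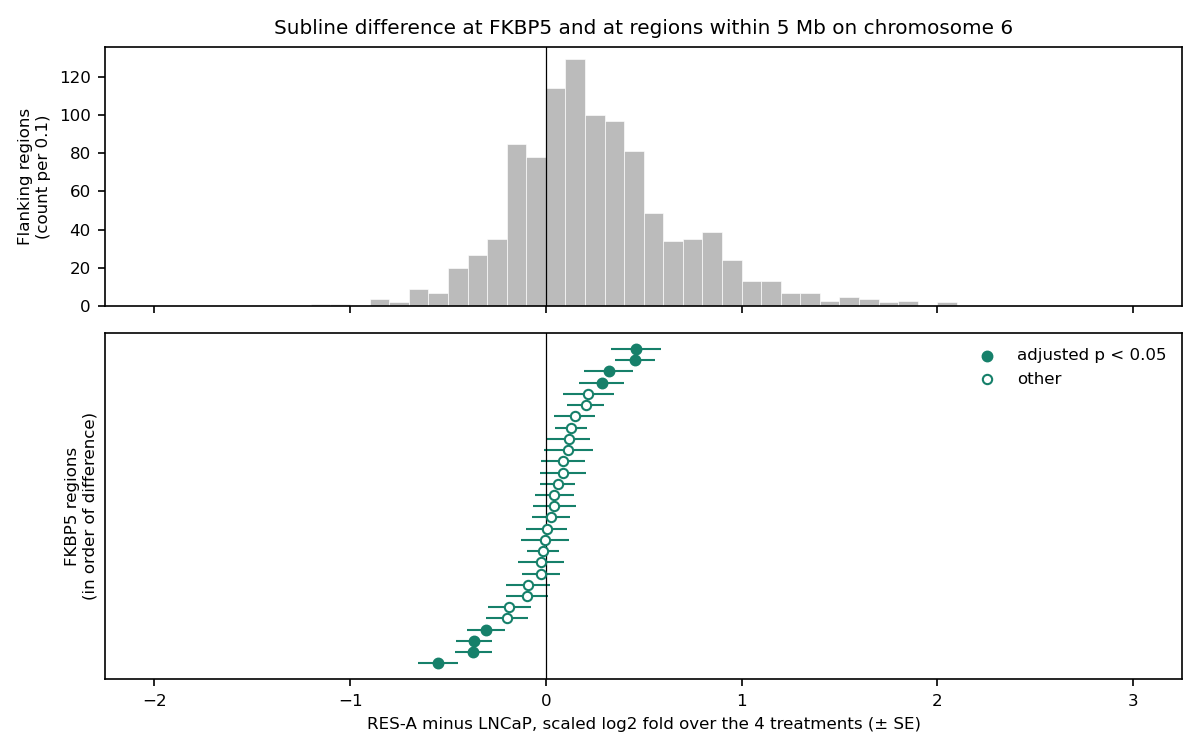
RES-A minus LNCaP in scaled log2 fold over the 4 treatments (horizontal axis) for the 1030 tested regions within 5 Mb of the FKBP5 window (upper panel, number of regions per 0.1) and for the 29 FKBP5 regions in order of their difference (lower panel, ± SE, filled where the adjusted p was under 0.05). The flanking regions centre above 0, at a median of 0.20, while the FKBP5 regions run from -0.55 to 0.46 with a median of 0.04.

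The highest FKBP5 regions by mean scaled fold, at -9.5, 39.2, 144.2, 1.3 and 97.3 kb, were listed in 22 to 24 libraries each. The first of them, at -9.5 kb (chr6:35705302-35705664), is upstream of the gene, had folds of 5.15 to 12.05 and was not called in any comparison of scaled folds, while centred on the flanks it was among the 21 regions lower in RES-A (difference -0.40, limma adjusted p = 0.000958). Another 12 regions, called in no comparison of scaled folds, at 125.8, 124.8, 111.7, 87.8, 83.6, 77.1, 30.3, -3.8, -4.2, -5.2, -5.7 and -8.3 kb, had folds of 2.41 to 8.80. A peak was listed in 6 to 23 libraries at each of these. Centred on the flanks, all of them but the 124.8 and 83.6 kb regions (limma adjusted p = 0.136 and 0.0526) were among the 21 lower in RES-A. By pileup, those at 125.8, 124.8, -4.2 and -5.7 kb were instead higher in RES-A (limma adjusted p = 0.00551, 4.91e-06, 0.000731 and 0.00357). The -5.7 kb region also rose with DHT in RES-A by pileup (limma adjusted p = 0.00601). The 125.8 kb region had peaks in 7 RES-A libraries and in no LNCaP library.

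Outside FKBP5, the regions whose scaled values over the 24 libraries were most like those of the 137.3 kb region lay at chr7:69061051-69061530 (Pearson r = 0.958), chr21:33085520-33085967 (r = 0.947) and chr1:51972247-51972701 (r = 0.945), of 223373 regions compared. These correlations are descriptions over libraries that share treatments and floors. At all 3 regions the scaled group means were highest with DHT in both sublines, from 2.36 to 2.97, against 1.30 to 1.73 with DMSO. That order follows from their choice by likeness to the DHT-responsive 137.3 kb region.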

How the data were processed

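FAIRE-seq was performed on 24 libraries of LNCaP and RES-A, with 3 for each subline and treatment, grouped by their labels. Per the labels' processing notes, reads were aligned to hg19 with BWA 0.7.8-r455, Picard 1.118 was used and peaks were called with MACS2 2.1.0. The lists are per library and were not pooled. The options of the peak caller and any control library are not given in the sources used here. The deposited lists give for each peak the pileup signal at the summit, which the authors did not scale between libraries, the −log10 p-value and −log10 q-value, and the fold enrichment, a ratio of the summit to the local background. The least significant listed q was 0.05.

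Local background was recovered as (pileup + 1)/fold - 1, and the genome-wide background of a library as the lowest value it took. Libraries without a peak at a region were given a floor, so that small differences there depend on the floors. Regions listed in at least 6 libraries were fitted with limma 3.58.1 (R 4.3.3), with trend and a mean for each of the 8 groups, after a check of the fit on simulated data. Counts and shares were compared by permutation with numpy 2.4.6, and local backgrounds by exact permutation with scipy 1.17.1 (Python 3.11.15). Depth in reads is unknown, and only the background per base stands for it.

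Regions were named with values if within 2 kb of the 5′ end, called in any comparison, or among the 5 with the highest mean. The window, the regions and the tests were chosen with earlier results of these data known. The alternatives were median centring, pileup, one common floor, other filters on regions, summit clusters, a q threshold of 0.01, the top 50000 peaks, a replicate block, the libraries with a background of at least 1 and each library left out in turn. The 19746 peaks off the main chromosomes were not used.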

Additional observations from a re-analysis of the deposited data

How the results depend on the processing

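Across alternatives, 386 of the recomputed values of the comparisons kept their direction or stayed within 1.5 times the main value, 46 moved and 1 reversed, and for single regions 539 kept their call, 66 lost it and 4 reversed. The cause was not tested where a value moved, except that regions listed in all 24 libraries and the top 50000 peaks leave few regions to test. The difference in FKBP5 peaks between sublines was -0.45 without the libraries with a background under 1. Below, the share of all regions called under a setting follows the count at FKBP5, where 29 regions were tested, 27 at the q threshold of 0.01, 7 with the top 50000 peaks and 5 with regions listed in all 24 libraries. For DHT against DMSO in LNCaP the calls were 4 with pileup (3.45%), 0 with regions in all libraries (2.28%) and 0 with the top 50000 peaks (4.16%), and in RES-A 2 with each of the latter (5.27% and 10.6%). The difference of the DHT effects gave 1 call under one common floor (1.77%). For DHT+ENZ against DHT in LNCaP the calls were 0 with median centring (0.0339%), 3 with pileup (1.24%), 2 with one common floor (1.43%), 0 with regions in all libraries (0.263%), 0 at the q threshold of 0.01 (0.243%), 0 with the top 50000 peaks (1.16%) and 2 without the shallow libraries (1.10%). In RES-A they were 0 with regions in all libraries (0.0751%), 1 at the q threshold of 0.01 (0.279%) and 0 with the top 50000 peaks (2.74%). For DHT+ENZ against ENZ there was 1 call in LNCaP under one common floor (0.192%), and in RES-A 1 under it (0.475%) and 1 with the top 50000 peaks (0.884%). Between sublines there were 15 calls with pileup (53.8%), 3 with one common floor (30.9%), 0 with regions in all libraries (36.5%), 1 with the top 50000 peaks (53.7%) and 21 centred on flanking 6p (70.9%). Regions with a peak in all 3 libraries numbered 12 in LNCaP DMSO, 13 in LNCaP DHT and 5 in LNCaP ENZ. Single regions reversed at 0.1 kb for DHT in RES-A with pileup (0.18), at 144.2 kb between sublines centred on flanking 6p (-0.055) and at 93.7 kb with median centring (-0.0062) and centred on flanking 6p (-0.092).

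With 1 library left out, the subline differences ran from 0.477 to 3.30 for FKBP5 peaks, from 1.46 to 2.02 for the strongest peaks and from 0.233 to 0.243 percentage points for the flanks. The calls ran from 1 to 4 for DHT in LNCaP, with 1 without LNCaP DMSO replicate 2 and 4 without LNCaP ENZ replicate 1. They ran from 3 to 8 for DHT in RES-A, with 3 without RES-A DHT replicate 1 or 2. For DHT+ENZ against DHT they ran from 0 to 4 in LNCaP and from 1 to 3 in RES-A, between sublines from 6 to 9, and were 0 throughout for the other comparisons. Replicate numbers were not taken to pair the libraries. The deviations of same-numbered libraries correlated over 0.1 in 11 of 18 pairs within LNCaP, 0 of 18 within RES-A and 1 of 48 across sublines. All 3 pairs were over 0.1 for LNCaP DHT with ENZ (0.225 to 0.543) and for LNCaP DMSO with DHT+ENZ (0.119 to 0.237), which were not compared with each other, and in no comparison made here. With the replicate number as a block, 3 regions rose with DHT in LNCaP, and in RES-A 6 rose and 1 fell, with the other counts as without it, and the permutation p-values within blocks were 0.434 for FKBP5 peaks, 0.00781 for the strongest peaks and 0.000488 for the flanks.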
